A study of Mus musculus with 4 samples.

Results

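The enzymes described here use the thiols glutathione and thioredoxin to remove peroxides, repair oxidised proteins and conjugate reactive chemicals, together with the superoxide dismutases and catalase. Members were all probe sets of the array that the platform annotation pairs with a single gene named as a glutathione transferase (Gsta, Gstm, Gstp, Gstt, Gstk, Gsto, Gstz), a glutathione peroxidase (Gpx), a peroxiredoxin (Prdx), a numbered thioredoxin (Txn1 or Txn2), a superoxide dismutase (Sod), or Cat, Gclc, Gclm, Gsr, Gss or Nqo1. The probe sets of Prdx1 and of the glutaredoxin Glrx3 are paired with several genes and were not used. The rule used names, with no measured value,  and found 48 probe sets of 35 genes, out of 8252 named genes on the array. The brightest probe set of each gene by its mean log2 signal was taken. For 30 genes that probe set reached the array median on at least 1 array and was tested. The other 5 (Gpx5, Gsta1, Gsta2, Gstm6 and Nqo1) stayed below it on all 4 arrays.

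Total RNA from mouse cells was measured on 4 Affymetrix MG_U74Av2 arrays. Neurospheres are balls of neural stem cells and their progeny that grow in suspension. Those used here came from the telencephalon of E13.5 mouse embryos, grew in medium labelled DMEM0 F12 with FGF2, and gave 1 array. Contamination by astrocytes, oligodendrocytes and glia is stated in the labels. R1 is an established mouse embryonic stem (ES) cell line. It was kept off the substrate as embryoid bodies for 48 hours in LIF (2 arrays, with aggregation and suspension in their titles) or on gelatin in standard conditions (1 adherent array). The labels list DMEM, LIF and beta-mercaptoethanol, itself a thiol reducing agent, for all 3 R1 cultures and do not list beta-mercaptoethanol for neurospheres, so cell type and medium cannot be told apart in any comparison of neurospheres with R1. The labels give the 2 embryoid body arrays a single sample identifier and the same description, and none says that they stem from separate cultures. The 2 were treated as replicates of 1 group. An SD reflects the spread of a gene between these 2 arrays. SEs and p-values rest mostly on the spread between them over other features of like intensity, and less on the gene's own. The spread between these 2 arrays may be technical. Neurospheres and adherent cells had no replicates.

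All 4 arrays were scanned on the same day and handled by the same fluidics station. Their deposited signals were on different scales, with trimmed means of 29.5 for neurospheres, 32.5 and 1485 for embryoid bodies and 1490 for adherent cells, so each array was scaled to 500. After scaling, the 10th percentile of each array lay between 17.4 (adherent) and 33.8 (neurospheres). There were no detection calls, so signals in that range were not told apart from background. The 3' to 5' signal ratio of the Gapdh control was 0.804 to 0.946 on the 4 arrays. Markers of the labelled cell types were checked. In neurospheres 12 of 13 tested pluripotency genes fell, and 7 of 14 tested neural progenitor genes rose, while the others on both lists did not pass. Over all features 11.9% were called lower and 8.2% higher. Of the risers, Fabp7, Hes5, Ptprz1 and Bcan lay below the array median on every R1 array, so they were tested through neurospheres alone. Of those that fell, Pou5f1, Nanog, Zfp42, Nr0b1, Dppa5a, Klf4, Klf5, Tcl1 and Gdf3 lay below it in neurospheres and were tested through R1.

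As background, thioredoxin passes electrons from NADPH to protein disulfides and to peroxiredoxins, which reduce hydrogen peroxide. Glutathione, made by glutamate-cysteine ligase and glutathione synthetase, serves the glutathione peroxidases and the transferases, and glutathione reductase restores it. Many of these genes are induced by the transcription factor NRF2 through antioxidant response elements. In the brain, glutathione synthesis and several glutathione transferases are known as features of astrocytes and radial glia.

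In neurospheres the thioredoxin gene Txn1, the peroxiredoxin gene Prdx2 and the mu-class transferase genes Gstm1 and Gstm5 rose, whereas Gsta4, Gstt2, Gpx4, Gsto1 and Sod1 fell. In limma's test across all 6843 features, 4 of the 30 tested genes (13.3%) were higher, against 8.2% of all features, and 5 (16.7%) were lower, against 11.9%. Without the intensity trend in the variance these counts fell to 1 and 2. The lower count was 3 without the signal filter and with R1 as 1 group, among others. Scaling the arrays to one median instead left the counts at 4 and 5. It split the calls over all features into 480 higher and 1204 lower, against 561 and 816. It also moved the median of all features to -0.14. At an unadjusted p under 0.05, 7 genes were higher and 5 lower, 12 of 30 in all, against 15.4%, 17.2% and 32.6% of all features. The median difference of the 30 genes was 0.04 on the log2 scale and that of all features 0.10, and the median size without sign was 0.66 and 0.70. Calls were made in both directions, and no test of the genes as a group was run. Neurospheres lay above all 3 R1 arrays in 10 of the 30 genes (35% of all features) and below all 3 in 10 (32% of all features). The gap was at least 2-fold above for 3 genes (10.3%) and at least 2-fold below for 3 (10.9%). Set against embryoid bodies alone, the same neurosphere array gave 4 higher and 5 lower calls among the 30 genes (7.28% and 10% of all features), and against adherent cells alone 4 and 3 (6.77% and 10.6%). Differences are on the log2(signal + 32) scale, neurospheres minus the R1 mean, in which embryoid bodies (averaged) and adherent cells count equally, and a gene passed at an adjusted p under 0.05. In whole cultures, fewer cells of a type and less RNA per cell cannot be told apart.

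**Figure D1:**
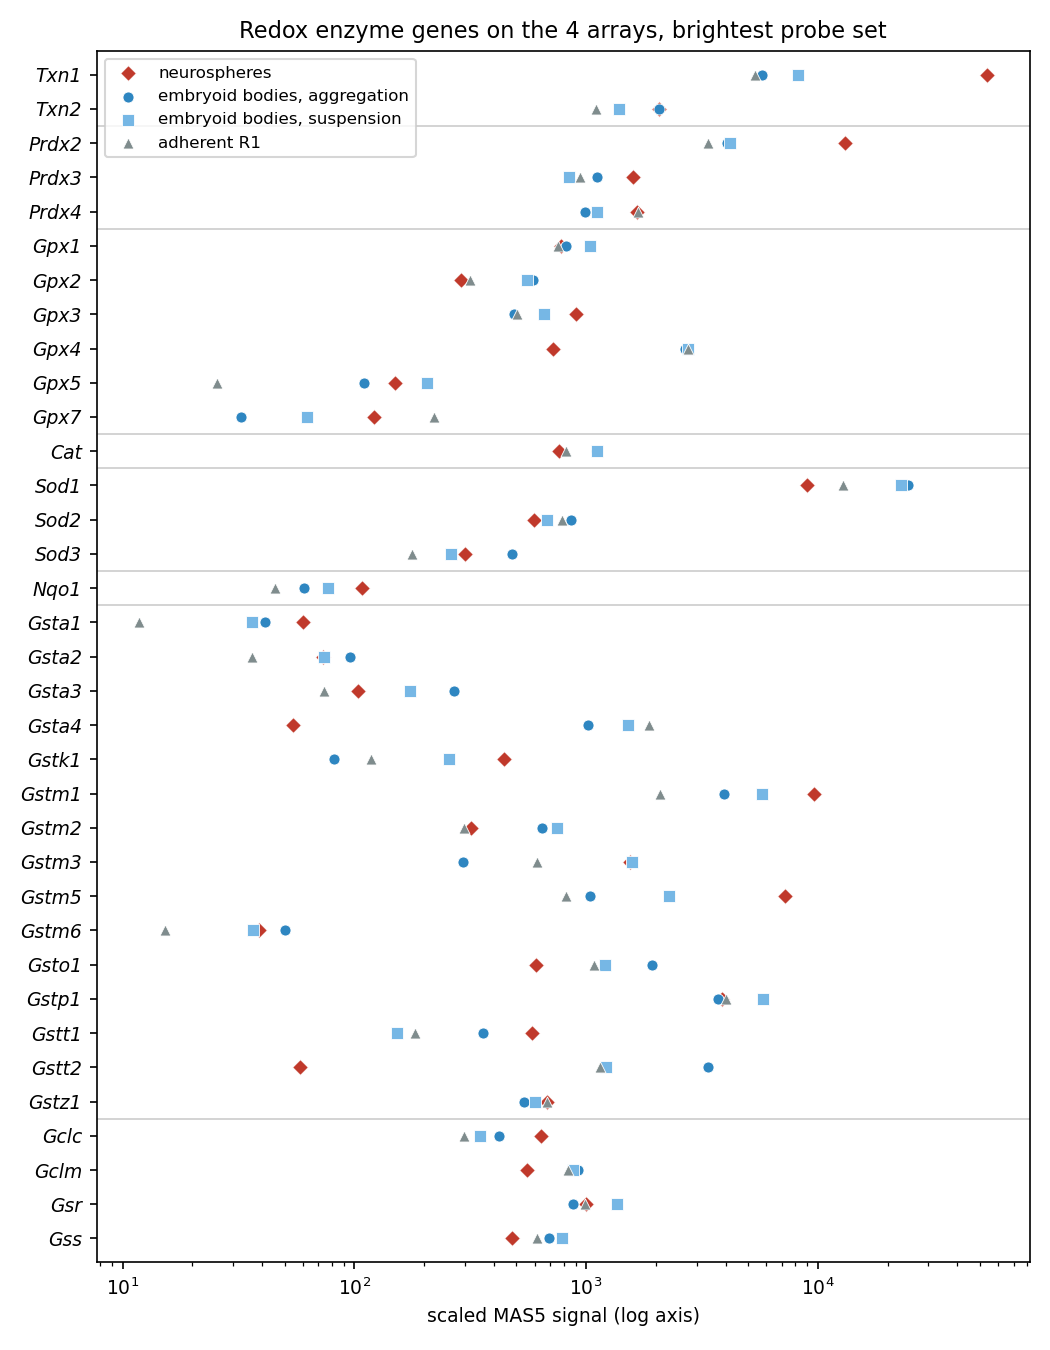
Scaled MAS5 signal (log axis) of the brightest probe set of each of the 35 genes on each array, with 1 point per array and lines between functional groups. The neurosphere points of Txn1, Prdx2, Gstm1 and Gstm5 lie to the right of all R1 points, and those of Gsta4, Gstt2, Gpx4, Gsto1 and Sod1 to the left.

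**Figure D2:**
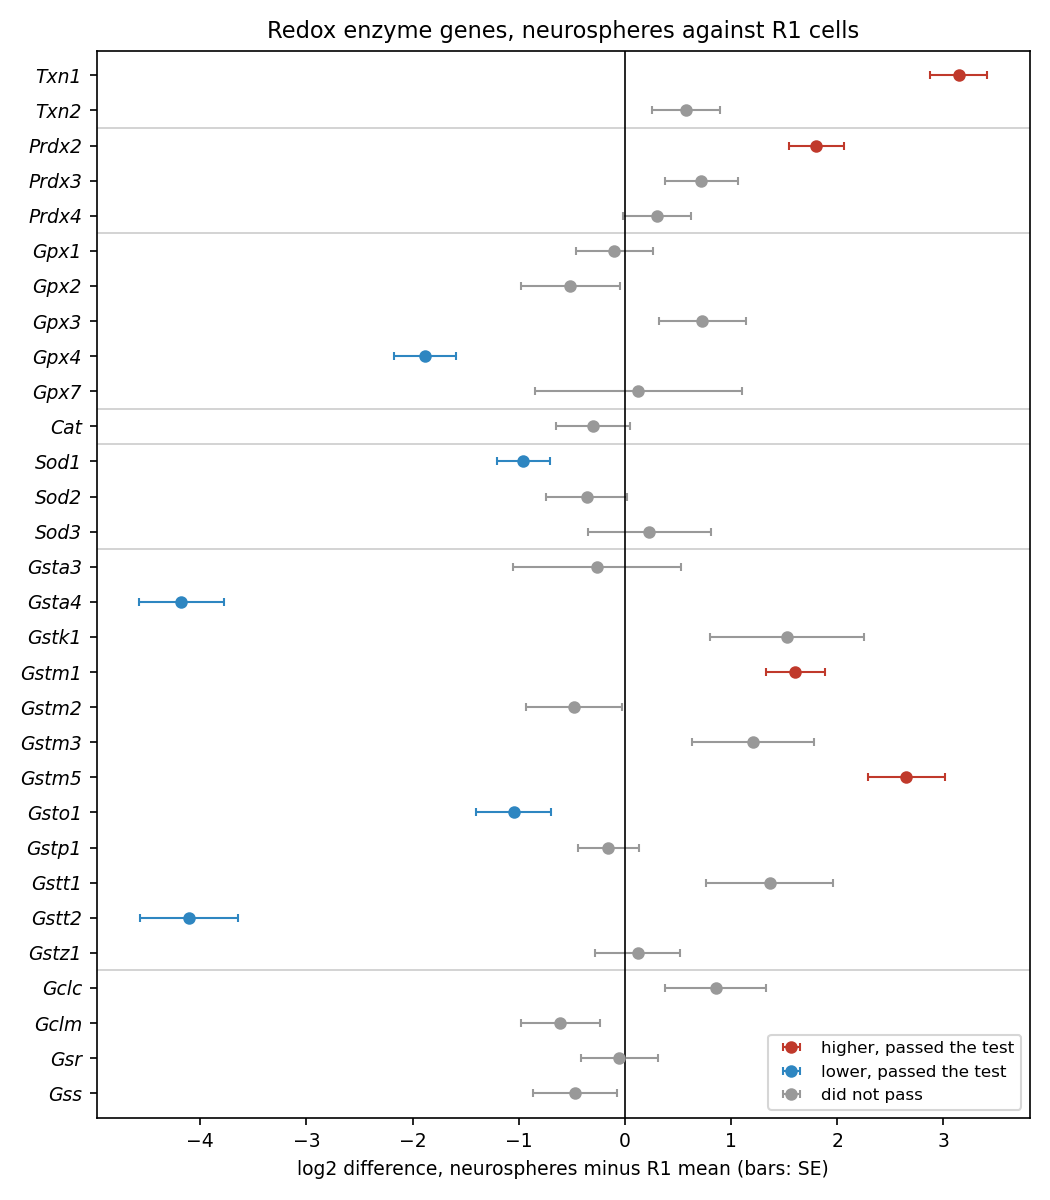
Log2 difference of neurospheres minus the R1 mean for the 30 tested genes, with the standard error from limma as bars. Txn1 has the largest rise (3.15) and Gsta4 and Gstt2 the largest falls (-4.18 and -4.11).

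Reference sequence is shown to set members that moved beside the motif through which NRF2 is known to act. Given are the 250 bases before the annotated start of Gstm5 and Txn1, which rose, and of Sod1, which fell, 5′ to 3′ on the gene's strand, from RefSeq on GRCm38.p6. Capitals mark the antioxidant response element core TGACNNNGC on either strand.
Gstm5 (chr3:107895604-107895853, plus strand): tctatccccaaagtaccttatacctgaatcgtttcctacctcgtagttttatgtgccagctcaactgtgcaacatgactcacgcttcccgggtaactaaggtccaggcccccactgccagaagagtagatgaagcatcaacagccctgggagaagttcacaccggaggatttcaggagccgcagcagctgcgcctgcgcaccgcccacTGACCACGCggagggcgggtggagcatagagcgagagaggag
Txn1 (chr4:57956412-57956661, minus strand): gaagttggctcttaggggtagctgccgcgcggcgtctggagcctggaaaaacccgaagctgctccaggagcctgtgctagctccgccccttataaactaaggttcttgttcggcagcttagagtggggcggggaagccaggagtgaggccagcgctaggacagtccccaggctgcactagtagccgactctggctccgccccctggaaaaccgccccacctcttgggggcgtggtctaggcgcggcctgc
Sod1 (chr16:90220512-90220761, plus strand): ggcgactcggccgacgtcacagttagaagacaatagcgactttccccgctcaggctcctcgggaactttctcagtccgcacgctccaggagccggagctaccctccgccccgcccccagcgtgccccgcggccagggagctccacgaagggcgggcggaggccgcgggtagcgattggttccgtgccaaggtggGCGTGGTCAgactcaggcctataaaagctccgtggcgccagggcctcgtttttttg
Gstm5 holds the core on the gene's strand, starting 42 bases before the annotated start, and Sod1 holds it on the opposite strand, in letters that begin 56 bases before. Neither match overlaps a GC box or TATA box. Txn1 has no match, which says only that these letters are not in this window. It has 4 matches to the GC box GGGCGG and 1 to the TATA box TATAAA, searched on both strands. The core was found in 10.2% of 32851 promoter windows of this length, and in 4 of the 30 member genes with a window, namely Gclm, Gsta3, Gstm5 and Sod1. Of these 4 genes, Gstm5 rose, Sod1 fell, and Gclm and Gsta3 did not pass the test. Whether the core bears on any of these changes was not tested. The GC box was in 18 of these 30 genes and in 32.7% of all windows. Member genes were counted if any of their windows held the motif, whereas the shares of all windows count each window, so the units differ. A match describes the letters only.

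Thioredoxin 1 was the member with the largest rise. Txn1, which encodes the cytosolic thioredoxin, had a scaled signal of 53854 in neurospheres, against 5748 (aggregation) and 8218 (suspension) in embryoid bodies and 5335 in adherent R1 cells. The neurosphere signal was 6.55 times the highest R1 signal, and the R1 arrays did not overlap with it. The log2 difference was 3.15 ± 0.27 (SE) with a limma adjusted p of 1.00e-07. The call held under all 13 alternative settings, with differences of 2.89 to 3.33. Txn2, the mitochondrial thioredoxin, had 2065 in neurospheres, against 2072 (aggregation) and 1389 (suspension) in embryoid bodies and 1108 in adherent R1 cells. The neurosphere and aggregation values differed by less than 1%, and Txn2 did not pass (0.58, adjusted p = 0.225). The difference between the Txn1 and Txn2 changes was not tested.

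Among the peroxiredoxins, which use thioredoxin or similar donors to remove peroxide, the cytosolic enzyme rose and the other 2 did not pass. Prdx2 had a scaled signal of 13030.2 in neurospheres, against 4038 (aggregation) and 4184 (suspension) in embryoid bodies and 3347 in adherent R1 cells. The neurosphere value was 3.11 times the highest R1 value, and the 3 R1 values lay close together. The difference was 1.80 ± 0.26 (SE), adjusted p = 4.64e-05. This call ended without the intensity trend in the variance (1.80). A second Prdx2 probe set was much dimmer and lay higher in neurospheres as well, at 327 in neurospheres against 95.9, 182 and 90.1 in R1. The third was at 8.58 to 16.5 on all arrays, below their 10th percentiles. Prdx3, the mitochondrial peroxiredoxin, had 1599 in neurospheres, 1118 and 847 in embryoid bodies and 941 in adherent R1 cells, above all R1 values but without passing the test (0.72, adjusted p = 0.15). Prdx4, the peroxiredoxin of the endoplasmic reticulum, had 1651 in neurospheres, 992 and 1117 in embryoid bodies and 1679 in adherent R1 cells. Neurospheres and adherent cells were close to each other there, and both were above the embryoid bodies (0.30, adjusted p = 0.539). Prdx2 is also abundant in red blood cells. Erythroid markers did not pass the test in either direction (5 tested of 9 listed, 7 on the array). Their summed signal was 1369.8 in neurospheres, 1185 and 1732 in embryoid bodies and 893 in adherent cells, with Hba-a1, an alpha globin gene, at 428 in neurospheres and 376, 384 and 229 in R1.

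The glutathione peroxidases reduce hydrogen peroxide and lipid peroxides with glutathione. Of 5 tested, Gpx4 fell and the other 4 did not pass. Gpx4, the selenoenzyme that reduces lipid hydroperoxides in membranes and protects cells from ferroptosis, had 718 in neurospheres, against 2676 (aggregation) and 2754 (suspension) in embryoid bodies and 2755 in adherent R1 cells. The 3 R1 values lay within 3% of each other, and the lowest of them was 3.73 times the neurosphere value. Its difference was -1.88 ± 0.29 (SE), adjusted p = 1.10e-04, and this call ended without the intensity trend (-1.88). Gpx1, the common cytosolic form, had 778 in neurospheres, 819 and 1039 in embryoid bodies and 754 in adherent R1 cells and showed no separation of neurospheres from R1 (-0.10). Gpx2, best known from gut epithelium, had 289 in neurospheres, 589.8 and 556 in embryoid bodies and 315 in adherent R1 cells (-0.51, adjusted p = 0.474). Both embryoid body arrays were higher than the other cultures for that gene. Gpx3, a secreted form, had 907 in neurospheres, 487 and 657 in embryoid bodies and 504 in adherent R1 cells (0.73, adjusted p = 0.227). The secreted form was thus highest in neurospheres and the gut form lowest there, neither past the test. Gpx7, a form of the endoplasmic reticulum, reached the array median on the adherent array alone, with 122 in neurospheres, 32.3 and 62.6 in embryoid bodies and 222 in adherent R1 cells (0.13). Gpx5, the epididymal form, was below the median on its brightest probe set, with 150.1 in neurospheres, 109.7 and 206 in embryoid bodies and 25.5 in adherent R1 cells. A second Gpx5 probe set reached the median in neurospheres alone, at 291, and did not pass (1.83, adjusted p = 0.189).

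Superoxide dismutases turn superoxide into hydrogen peroxide, which catalase breaks down. Of 3 dismutases tested, Sod1 fell and the other 2 did not pass. Sod1, the cytosolic copper and zinc enzyme, had 8969.8 in neurospheres, against 24403 (aggregation) and 22904 (suspension) in embryoid bodies and 12862 in adherent R1 cells. Neurospheres were below every R1 array, but the adherent array lay nearer to neurospheres than to the embryoid bodies. The difference from the R1 mean was -0.96 ± 0.25 (SE), adjusted p = 0.0104. Against the adherent array alone it was -0.52 and did not pass, and the call also ended without either embryoid body array (-0.93 without aggregation and -0.98 without suspension), without the signal filter, without the intensity trend and with R1 as a single group. Sod2, the mitochondrial manganese enzyme, had 596 in neurospheres, 865 and 677 in embryoid bodies and 785 in adherent R1 cells (-0.36, adjusted p = 0.546). Sod3, the extracellular enzyme, had 301 in neurospheres, 479.9 and 260.2 in embryoid bodies and 177 in adherent R1 cells (0.23, adjusted p = 0.811). For Sod2 and Sod3 the neurosphere value lay within or close to the R1 range. Cat, which encodes catalase, had 767 in neurospheres, 1108 and 1114 in embryoid bodies and 819.6 in adherent R1 cells on its brightest probe set (-0.30, adjusted p = 0.577). That probe set is of the _f_at class, which can detect several transcripts of a family. On it the embryoid body arrays lay above both other cultures. A dimmer catalase probe set, without a class mark, pointed the other way, at 0.69. It had 275 in neurospheres, 43.5 and 165 in embryoid bodies and 262 in adherent R1 cells. The quinone reductase gene Nqo1, a classic NRF2 target, had 108 in neurospheres, 60.9 and 76.9 in embryoid bodies and 45.3 in adherent R1 cells, below the array median throughout, and its dimmer probe set lay on the other side of 0 (-0.39).

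**Figure D3:**
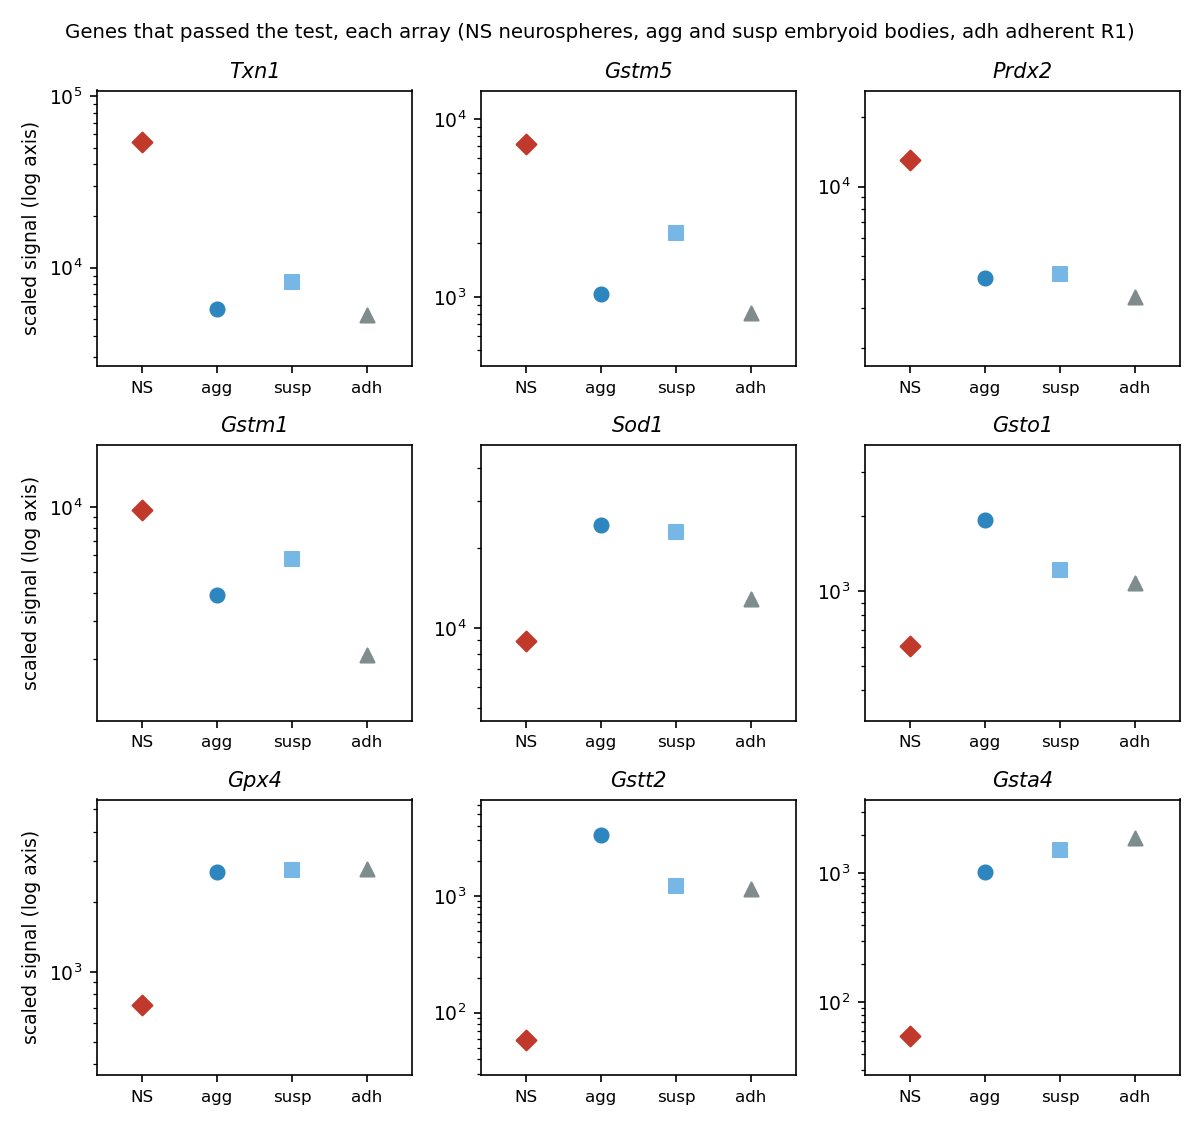
Scaled signal (log axis, its range set for each gene) of the 9 genes that passed the test, with 1 point per array. The 3 R1 points of Gpx4 lie at nearly the same height, while those of Gstm5, Gstm1 and Gstt2 spread over more than a factor of 2.

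The glutathione transferases, which attach glutathione to reactive compounds, held the largest falls of all members. Of 12 tested, Gstm1 and Gstm5 rose and Gsta4, Gstt2 and Gsto1 fell. Gsta4, the alpha-class enzyme known for conjugating the lipid peroxidation product 4-hydroxynonenal, had 54.3 in neurospheres, against 1023 (aggregation) and 1519 (suspension) in embryoid bodies and 1877 in adherent R1 cells. The neurosphere signal was below the array median and the R1 signals were far above it, so the probe set passed the signal filter through the R1 arrays. Its difference was -4.18 ± 0.40 (SE), adjusted p = 4.74e-07. Gstt2, a theta-class enzyme, had 58.3 in neurospheres, against 3358 (aggregation) and 1215 (suspension) in embryoid bodies and 1143 in adherent R1 cells. It too was below the median in neurospheres alone, and the aggregation array was 2.76 times the suspension array. The difference was -4.11 ± 0.46 (SE), adjusted p = 3.43e-06. The size of both falls depends on the value added before taking log2. With 1 and with 100 added, Gsta4 lay at -4.79 and -3.40 and Gstt2 at -4.68 and -3.36. Both calls held under all 13 alternatives.

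Gstt1 is the theta-class neighbour of Gstt2 on chromosome 10, with 1 other coding gene between them in the RefSeq gene table. It had 586 in neurospheres, against 359 (aggregation) and 152 (suspension) in embryoid bodies and 182 in adherent R1 cells. Neurospheres were highest, opposite to Gstt2, but Gstt1 did not pass (1.37, adjusted p = 0.121), and the difference between the neighbours was not tested. Gsto1, an omega-class enzyme that reduces dehydroascorbate and mixed disulfides, had 605 in neurospheres, against 1933 (aggregation) and 1212 (suspension) in embryoid bodies and 1077 in adherent R1 cells. Neurospheres were lowest. The difference of -1.05 ± 0.36 (SE), adjusted p = 0.0438, passed narrowly and was lost under 9 of the 13 alternatives, among them without either embryoid body array (-0.88 without aggregation and -1.21 without suspension) and against adherent cells alone (-0.80).

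The mu-class transferases Gstm1, Gstm2, Gstm3, Gstm5 and Gstm6 form a cluster on chromosome 3 and have similar sequences. Gstm5 had 7223 in neurospheres, against 1039 (aggregation) and 2286 (suspension) in embryoid bodies and 816 in adherent R1 cells on its brightest probe set. Neurospheres were 3.16 times the highest R1 value, that of suspension. The difference was 2.65 ± 0.36 (SE), adjusted p = 3.02e-05. Gstm1 had 9653 in neurospheres, against 3946 (aggregation) and 5748 (suspension) in embryoid bodies and 2078 in adherent R1 cells. Here neurospheres were 1.68 times the highest R1 value, and the R1 arrays themselves spread widely. The difference was 1.61 ± 0.28 (SE), adjusted p = 3.70e-04. The brightest probe sets of Gstm1, Gstm3 and Gstm5 are of the _f_at class, which can detect several transcripts of a family, so their signals are uncertain as to the single gene. The other probe sets of Gstm5 also lay higher in neurospheres, at 2.46, 1.44 and 1.25. The first of these, whose identifier carries no class mark, had 1319 in neurospheres, 287 and 321 in embryoid bodies and 147 in adherent cells. The other Gstm1 probe set, of the reduced _r_at class, lay at 0.09, and the Gstm1 call ended with the mean of both (0.85). Without the intensity trend the calls of Gstm1 and Gstm5 ended (1.61 and 2.65).

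Gstm3 had 1552 in neurospheres, against 293 (aggregation) and 1573 (suspension) in embryoid bodies and 615 in adherent R1 cells, so neurospheres matched the suspension array and lay well above aggregation. It did not pass (1.21, adjusted p = 0.151), and its second probe set lay at 0.16. Without the suspension array, Gstm3 passed, at 1.79. Gstm2 had 319.7 in neurospheres, 648 and 751 in embryoid bodies and 297 in adherent R1 cells (-0.48, adjusted p = 0.489). On this probe set, of the _r_at class, both embryoid body arrays were above both other cultures. Its dimmer probe set, without a class mark, lay at -1.43. There aggregation (224) was below adherent cells (266) and suspension (429) above them. Gstm6 was at 15.3 to 49.99 on all arrays, with its second probe set at 0.94. The mu-class cluster therefore held genes higher in neurospheres and genes that did not pass, within the limit of cross-detection.

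Of the remaining transferases, Gstk1, a kappa-class enzyme of mitochondria and peroxisomes, had 443 in neurospheres, 81.6 and 257 in embryoid bodies and 118 in adherent R1 cells (1.53, adjusted p = 0.154), the highest value being that of neurospheres. Gstp1, the pi-class enzyme that is abundant in many cultured cells, had 3876 in neurospheres, 3723 and 5823 in embryoid bodies and 4021 in adherent R1 cells, with neurospheres among the R1 values (-0.16). Its near-identical copy Gstp2 makes the signal uncertain as to the gene. Gstz1, which is also maleylacetoacetate isomerase of tyrosine breakdown, had 678 in neurospheres, 539 and 599 in embryoid bodies and 676 in adherent R1 cells (0.12). Gsta3 reached the array median on the aggregation array alone, with 104 in neurospheres, 269 and 174 in embryoid bodies and 74.2 in adherent R1 cells (-0.26). Gsta1 and Gsta2, alpha-class enzymes with near-identical sequences, were below the median on all 4 arrays, at 11.8 to 60.2 and 36.0 to 95.8.

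**Figure D4:**
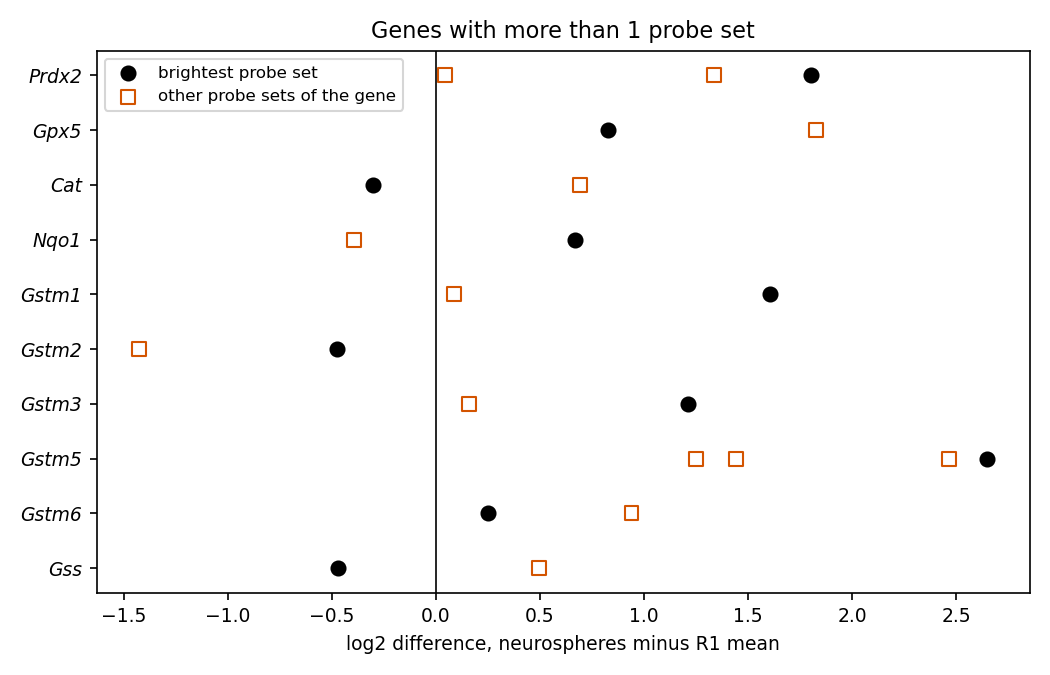
Log2 difference of neurospheres minus the R1 mean for each probe set of the 10 genes with more than 1 probe set (filled: brightest, open: others). All 4 probe sets of Gstm5 lie above 0, whereas those of Cat, Nqo1 and Gss lie on both sides of 0.

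None of the 4 genes of glutathione synthesis and reduction passed limma's test, and 0 of them had an unadjusted p under 0.05. Gclc, the catalytic subunit of glutamate-cysteine ligase, had 638 in neurospheres, 420.1 and 348 in embryoid bodies and 298 in adherent R1 cells, with neurospheres highest (0.86, adjusted p = 0.224). Gclm, the modifier subunit, had 558 in neurospheres, 924 and 881 in embryoid bodies and 832 in adherent R1 cells, with neurospheres lowest (-0.61, adjusted p = 0.269). The 2 subunits thus lay on opposite sides of the R1 arrays without either passing. Gss, glutathione synthetase, had 478 in neurospheres, 689.5 and 785 in embryoid bodies and 617 in adherent R1 cells (-0.47, adjusted p = 0.436), and its second probe set lay at 0.50. Gsr, glutathione reductase, had 1002 in neurospheres, 876 and 1361 in embryoid bodies and 988 in adherent R1 cells (-0.05, adjusted p = 0.938).

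The enzymes that feed these pathways were taken from lists of named genes, whose differences are given on the log2 scale. Over all features the share called was 8.2% higher and 11.9% lower and the median difference 0.10, and each list's count is to be read beside these. In thioredoxin reduction and NADPH supply (14 tested of 16 listed), 4 rose and 1 fell, with a median of 0.26. The risers included Me1, the cytosolic malic enzyme that makes NADPH, at 804 in neurospheres against 22.1, 92.2 and 129 in R1 (2.86). This call was lost against adherent cells alone (2.37). Idh1, the cytosolic NADP-dependent isocitrate dehydrogenase, and Tkt, transketolase of the pentose phosphate pathway, rose by 1.54 and 1.17, and the Tkt call ended without either embryoid body array (1.07 and 1.26). Txnip, which binds and inhibits thioredoxin, fell. It had 512 in neurospheres, against 2754 (aggregation) and 2708 (suspension) in embryoid bodies and 3890.4 in adherent R1 cells (-2.60 ± 0.29 (SE), adjusted p = 3.20e-06). Its brightest probe set is of the _s_at class, which can detect similar transcripts, and the dimmer one did not share the fall (0.07). Txnrd1, the cytosolic thioredoxin reductase, was chosen after its values were seen, with 1888 in neurospheres, 1602 and 1723 in embryoid bodies and 1813 in adherent R1 cells (0.12, adjusted p = 0.811).

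In glutathione supply, salvage and other transferases (9 tested of 22 listed), 1 rose and 3 fell, with a median of -0.64. Mgst1, a microsomal glutathione transferase, had 624 in neurospheres, against 22.2 (aggregation) and 29.6 (suspension) in embryoid bodies and 28.7 in adherent R1 cells, and the R1 signals lay in the range not told apart from background. Mgst1 was called (adjusted p = 0.0266), but the size of its difference is set by the value added before taking log2, at 2.51 with 100, 3.47 with 32 and 4.47 with 1 added, and is no measured fold. The call was lost with 1 added and against adherent cells alone (3.43). Ggct, gamma-glutamylcyclotransferase of glutathione breakdown, fell (-1.88), a call lost under 7 of the 13 alternatives, among them without aggregation (-1.90) or suspension (-1.86). Slc3a2, the heavy chain shared by several amino acid exchangers, the cystine importer included, fell by 1.57 to 2556 in neurospheres, against 8155, 5127 and 9029.8 in R1, and was not called without the aggregation array (-1.40). Ahcy, adenosylhomocysteinase of the methionine cycle, fell by 0.91, with its other probe sets at -0.98 and 0.07, and was not called without either embryoid body array (-0.92 and -0.91).

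Among NRF2, its regulators and classic targets (13 tested of 22 listed), 2 rose and 1 fell, with a median of -0.52. The risers were Ephx1, microsomal epoxide hydrolase, at 1827 in neurospheres against 74.6, 118 and 85.1 in R1 (3.93), and Cbr3, a carbonyl reductase (2.93). Sqstm1, the autophagy adaptor p62 that also binds the NRF2 inhibitor KEAP1, fell (-2.17). Nfe2l2, which encodes NRF2, was chosen after its values were seen. It had 695 in neurospheres, 1192 and 1269 in embryoid bodies and 1509 in adherent R1 cells and did not pass (-0.94, adjusted p = 0.0528). Of the sources of reactive oxygen species, 3 of 13 were tested (median 0.70). Cyba, the p22phox subunit of NADPH oxidases, fell (-2.41, and -2.43 on a dimmer probe set), and the other 2 did not pass. Of selenoprotein synthesis and methionine sulfoxide repair genes (8 tested of 17 listed, median 0.40), 1 rose and the others did not pass. It was Selenok, a selenoprotein of the endoplasmic reticulum (1.27, and 1.10 on a dimmer probe set), not called without either embryoid body array (1.29 and 1.26). Without the intensity trend, the pathway genes named here as called kept their calls only for Txnip, Mgst1, Ephx1 and Cyba. Me1, Mgst1 and Ephx1 lay below the array median on every R1 array, so their probe sets passed the signal filter through neurospheres alone. Ggct and Cyba lay below it in neurospheres alone and passed the filter through the R1 arrays.

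Some markers of astrocytes, which the neurosphere labels name among contaminating cells, were higher on the same neurosphere array as Txn1, Prdx2, Gstm1 and Gstm5. Of 11 astrocyte genes tested of 12 listed, 4 rose and 1 fell, beside 8.2% and 11.9% of all features, while the summed signal was 47843 in neurospheres, 45912 and 29017 in embryoid bodies and 37931 in adherent cells. The 4 that rose were Aldoc, the brain form of aldolase (4.34), Mt3, a brain metallothionein (3.94), Sparcl1, a secreted matrix protein (3.89), and Cpe, carboxypeptidase E (3.87), all on the log2 scale. Mt3 had 12719 in neurospheres, 1135 and 599 in embryoid bodies and 773 in adherent R1 cells, and Aldoc had 4279 in neurospheres, 194 and 599 in embryoid bodies and 88.5 in adherent R1 cells. Gja1, the gap junction protein connexin, fell (-1.39). These 5 genes were named after their values were seen. Sparcl1 lay below the array median on every R1 array, so its probe set passed the signal filter through neurospheres alone. Slc1a2 (1.28), Glul (-0.21), Clu (-1.18) and Apoe (-0.32) did not pass. The defining markers Gfap and Aqp4 did not pass either. Gfap had 384 in neurospheres, 130.1 and 215 in embryoid bodies and 143 in adherent R1 cells, and Aqp4 had 251 in neurospheres, 61.0 and 225 in embryoid bodies and 19.7 in adherent R1 cells. Of 5 oligodendrocyte genes tested of 11 listed, 2 rose and the others did not pass, with summed signals of 3523 in neurospheres, 1638 and 2007 in embryoid bodies and 936 in adherent cells. One gene rose and another fell among 6 tested neuron genes, and 1 fell in each of the microglia (5 tested), endothelium (4 tested) and fibroblast (7 tested) lists. These counts are to be read beside the same shares of all features. The risers Nkx2-2 (oligodendrocyte) and Gap43 (neuron) lay below the array median on every R1 array. Their probe sets thus passed the signal filter through neurospheres alone. No marker was listed at 0 on any array. The part of these cells in the differences of the redox genes was not tested.

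The second comparison asked whether growth as unattached embryoid bodies changes these genes in R1 cells relative to adherent culture. None passed: limma called 0 of the 30 genes higher and 0 lower, against 0.263% and 0.0877% of all features, so calls were few on the whole array. At an unadjusted p under 0.05, 4 of the 30 genes were higher and 0 lower, against 8.51% and 5.86% of all features (14.4% either way). These were Gstm1, Gstm2, Gstm5 and Sod1, the mu-class genes within the limit of cross-detection. The median difference was 0.29 for the 30 genes and 0.10 for all features. Both embryoid body arrays lay above the adherent array in 17 of the 30 genes, against 42.2% of all features, and below it in 5, against 32.7%. Scaling to one median moved the median of all features to -0.25, and split its calls into 35 higher and 368 lower, against 18 and 6, so the sign of the smaller differences depends on the scaling.

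Gstm1 in embryoid bodies averaged 4847 ± 1274 (SD, n = 2), against 2078 in adherent cells, a difference of 1.18 ± 0.29 (SE, limma adjusted p = 0.0781). Sod1 in embryoid bodies averaged 23653 ± 1060.1 (SD, n = 2), against 12862 in adherent cells (0.88 ± 0.26, adjusted p = 0.163), and its embryoid body arrays lay close together. Gstm2 was at 1.15 on a probe set of the _r_at class and Gstm5 at 0.89, both with adjusted p values over 0.05. The dimmer Gstm2 probe set lay at 0.20, and those of Gstm5 at 0.91, 0.83 and -0.48. The dimmer Gstm1 probe set lay at 1.03. The lowest difference was that of Gpx7 (-1.70, adjusted p = 0.462), whose embryoid body signals of 32.3 and 62.6 were low. Gpx4 (-0.02), Sod2 (-0.03) and Prdx3 (0.05) lay nearest to 0. From the pathway lists, Fth1, the ferritin heavy chain and a classic NRF2 target, was called higher on a probe set of the _r_at class, with 16846 and 18267 in embryoid bodies against 6268 in adherent cells (1.48, adjusted p = 0.0169). Selenot, a selenoprotein of the endoplasmic reticulum, was called lower, with 1008 and 942 against 2895 (-1.54, adjusted p = 0.0351). Both were chosen after their values were seen, and no feature on the array was called in this comparison without the intensity trend or without the signal filter.

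**Figure D5:**
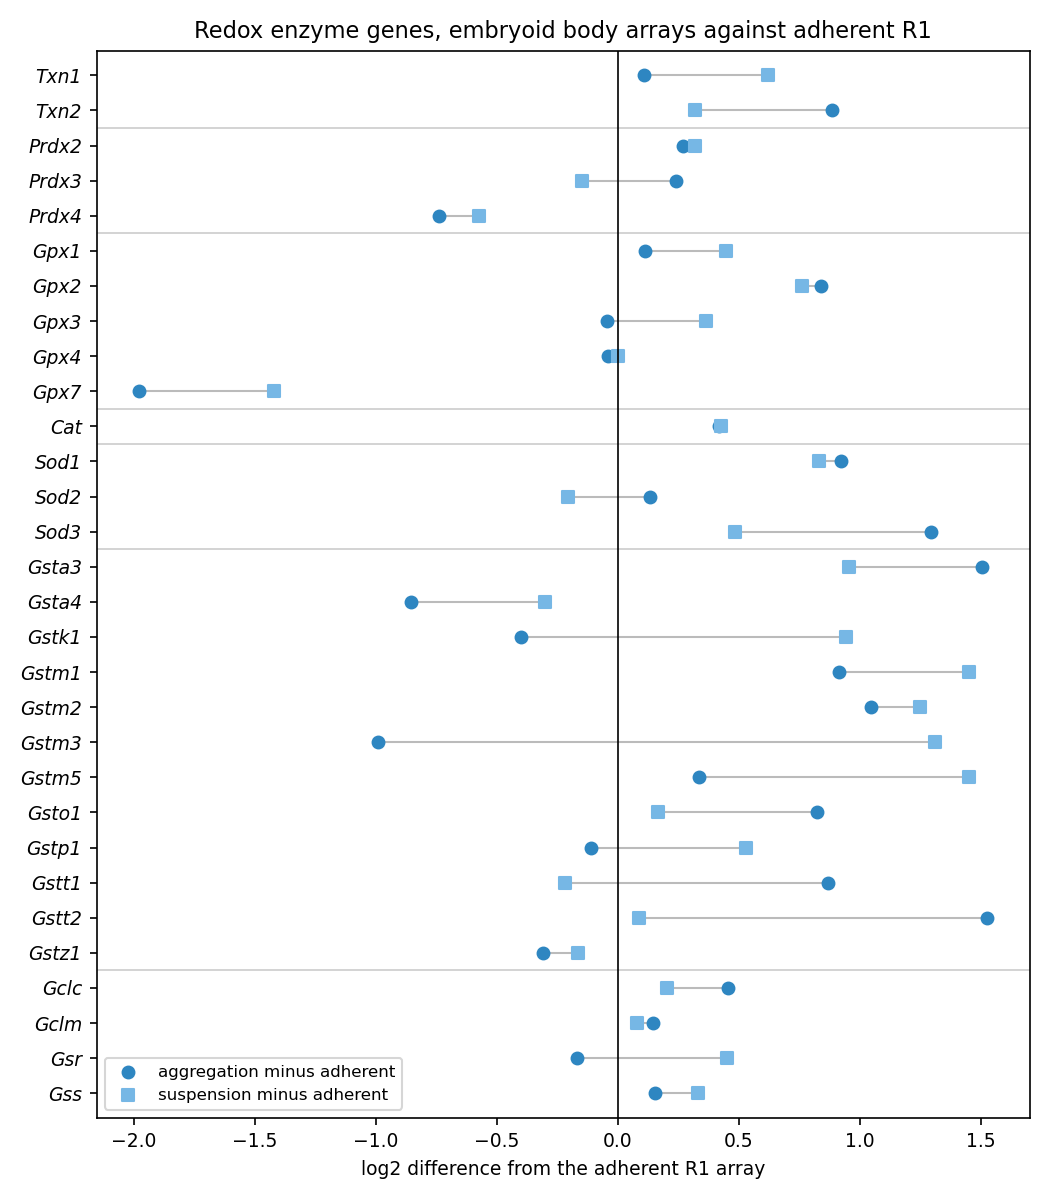
Log2 difference of each embryoid body array from the adherent R1 array for the 30 tested genes (circles: aggregation, squares: suspension, lines join the pair). The pairs of Sod1, Gpx2 and Cat are short, whereas Gstm3, Gstk1, Gstt1 and Gstt2 have long lines.

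The members that differed most between the aggregation and suspension arrays were transferases. No test applies, since each is 1 array. Aggregation was at least 2-fold above suspension in 2 of the 30 genes, against 7.6% of all features, and at least 2-fold below in 3, against 9.73%. The higher ones were the theta-class pair, Gstt2 and Gstt1, at 2.76 and 2.36 times the suspension signal. The lower ones were Gstm3, Gstk1 and Gstm5, whose suspension signals were 5.36, 3.15 and 2.20 times those of aggregation. On their brightest probe sets, Cat, Gpx4 and Prdx2 lay close together on these arrays, with log2 differences of -0.01, -0.04 and -0.05. The median size of the difference without sign was 0.46 for the 30 genes and 0.37 for all features.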

How the data were processed

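The deposited table holds linear intensity (MAS5 signal) per probe set, computed by the authors with MAS5 per the submitters' processing notes. Its version, scaling target and settings were not given in the sources used. Of 12488 probe sets, 66 controls were left out. Scaling brought the 2% trimmed mean of every array to 500. Before log2, 32 was added, which understates changes of low signals. Probe sets at or above the array median on at least 1 array were kept and the brightest per gene was used, giving 6843 features. A limma model (limma 3.58.1, R 4.3.3) with 3 groups and an intensity trend was fitted to all features. The pair of embryoid body arrays supplied the 1 residual degree of freedom, the prior adding 17.34, so the single arrays were assumed to vary alike. Two-sided p-values were Benjamini-Hochberg adjusted across the 6843 features. On simulated data for neurospheres against R1, 88 of 100 features changed by 3 and 45 of 100 changed by 1.5 (log2) were called. So were 34 unchanged ones, a larger share of all calls than the adjusted p threshold of 0.05 is meant to allow. The simulation changed far fewer features than the 561 higher and 816 lower calls in the data. It therefore cannot give the share of false calls in the data. No batch was tested, since all arrays shared a day and station. The deposited scales, however, set neurospheres and aggregation (trimmed means 29.5 and 32.5) apart from suspension and adherent cells (1485 and 1490). That split runs through the embryoid body pair, and its origin was not tested. Arrays were few, which limits the precision of every value.

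The members and lists were chosen with earlier results of these data known. All members are accounted for. From each pathway list up to 4 called genes were named by size, and other genes are marked as chosen after their values were seen. Alternatives were another added value (1 or 100), no signal filter, no intensity trend, quantile normalization, median scaling, the mean of a gene's probe sets, no _r_at probe sets, leaving out each embryoid body array, R1 as 1 group, and each R1 culture as the only comparator. All 35 gene identifiers matched the RefSeq gene table, and 30 genes had a promoter window.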

Additional observations from a re-analysis of the deposited data

How the results depend on the processing

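The 4 higher and 5 lower calls among the redox genes in neurospheres fell to 1 and 2 without the intensity trend, when Txn1, Gsta4 and Gstt2 were still called. The lower calls numbered 3 without the signal filter, 3 with R1 as 1 group, 3 against adherent cells alone and 3 without either embryoid body array (lowest and highest both 3). Of the 117 alternative values of the 9 called genes, 97 kept direction and side of the threshold, 20 lost the call and 0 changed sign. Calls over all features were 561 higher and 816 lower, against 219 and 245 without the trend, 471 and 587 without the filter, 269 and 400 without aggregation, 329 and 451 without suspension, and 480 and 1204 after median scaling, which moved the median of all features from 0.10 to -0.14. For embryoid bodies against adherent cells they were 18 and 6, against 0 and 0 without the trend or the filter, 35 and 368 after median scaling, 13 and 2 after quantile normalization, 1 and 1 with the mean of probe sets, and 3 and 2 without _r_at probe sets. No redox gene was called there under any of the 8 alternatives. Causes of these changes were not tested.

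Signs changed only for genes that had not passed in the comparison concerned. In neurospheres against R1 this happened with probe sets averaged per gene for Cat (0.20) and Gss (0.014); against adherent cells alone for Gpx1 (0.042), Gpx7 (-0.72), Gsr (0.020), Gsta3 (0.35), Gstm2 (0.097) and Prdx4 (-0.024); after quantile normalization for Gpx7 (-0.094); after median scaling for Gpx7 (-0.091) and Gstz1 (-0.12); against embryoid bodies alone for Sod3 (-0.21). Leaving out 1 embryoid body array gave -0.012 to 0.27 for Gpx7, -0.20 to 0.10 for Gsr and -0.32 to 0.003 for Gstp1. In embryoid bodies against adherent cells it happened with probe sets averaged per gene for Cat (-0.42) and Gstm3 (-0.15); after median scaling for Gclc (-0.009), Gclm (-0.24), Gpx1 (-0.078), Gpx3 (-0.19), Gsr (-0.22), Gss (-0.11), Gstk1 (-0.031), Gstm3 (-0.20), Gstp1 (-0.16), Prdx2 (-0.074), Prdx3 (-0.31) and Txn1 (-0.006); after quantile normalization for Gpx4 (0.12) and Gstk1 (-0.081). Leaving out an embryoid body array there left no residual degree of freedom, so those values carry no test. They lay on both sides of 0 for the 8 genes whose embryoid body arrays straddled the adherent array, at -0.045 to 0.36 for Gpx3, -0.17 to 0.45 for Gsr, -0.40 to 0.94 for Gstk1, -0.99 to 1.31 for Gstm3, -0.11 to 0.53 for Gstp1, -0.22 to 0.87 for Gstt1, -0.15 to 0.24 for Prdx3 and -0.205 to 0.135 for Sod2. No paired analysis was possible because the groups share fewer than 2 replicate numbers. Without detection calls, signals near the 10th percentile could not be told from background.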
